A study of Mus musculus with 12 samples.

Results

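Part of the hippocampal RNA samples of this series had high levels of choroid plexus transcripts, and the arrays of those samples are set here against the arrays with low levels. The choroid plexus is the tissue of the brain ventricles that makes cerebrospinal fluid. The arrays were chosen by a readout. For each of 11 arrays the log2 intensity of the 5 genes Ttr, Folr1, Kl, Clic6 and Kcnj13 was scaled to the 75th percentile of the array and averaged, and the arrays above the mean of the 11 were taken. That gave 4 arrays of the 11, and of 12 in all, which are called choroid arrays below. The array of CT12 mouse 11 stood outside the rule and is described on its own. Because the same intensities chose the arrays, every difference between the 4 choroid arrays and the 7 others is given as a description, with no test.

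Each array was hybridised with total RNA from the hippocampus of 1 adult wild-type male, kept in continuous darkness until sampling. There were 3 mice at each of 4 circadian times: CT0 after 36 h of darkness, CT6 after 42 h, CT12 after 48 h and CT18 after 30 h. The choroid arrays were CT0 mouse 1, CT6 mouse 7, CT12 mouse 10 and CT18 mouse 14, so that each circadian time had 1. The other arrays were CT0 mice 2 and 3, CT6 mice 5 and 6, CT12 mouse 12 and CT18 mice 15 and 16. The strain and the way the hippocampus was dissected are not given in the sources used here.

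The choroid plexus is a folded sheet of ciliated secretory epithelium over a stroma of fibroblasts, macrophages and leaky vessels. In the lateral ventricle it is attached along the fimbria, at the edge of the hippocampus, where its epithelium passes into the ependyma that lines the ventricle. The epithelium moves ions and water into the cerebrospinal fluid, carries folate, ascorbate and hormones across the blood barrier, and secretes carrier proteins. Transthyretin (Ttr), which carries thyroid hormone and retinol-binding protein, is its best known product in the brain.

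The share of the 59305 non-control spots that stood well above background ran from 59.3% to 67.1%, except on CT0 mouse 3, where it was 77.1%. The arrays lay on 3 slides, and 3 of the 4 choroid arrays (CT0 mouse 1, CT12 mouse 10 and CT18 mouse 14) shared slide 1 with CT6 mouse 5, while CT6 mouse 7 lay on slide 3. The local background of CT0 mouse 1 was 100 intensity units against 25 to 37 on the other arrays, and its quality result in the file header was to be evaluated. Against the mean of the 7 other arrays, the 8 markers of forebrain excitatory neurons had medians of -0.71 to 0.09 on the 11 arrays but -5.25 in CT12 mouse 11. The 8 cerebellar markers had a median of 4.27 in that array, so its hippocampus label did not match its markers.

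Intensities below are scaled log2 values, from which the 75th percentile of the array was subtracted, and a difference of 1 is a doubling. The 4 choroid arrays are given throughout in the order of mice 1, 7, 10 and 14, which is that of CT0, CT6, CT12 and CT18. The mean of the 5 markers was 4.10, 3.03, 3.54 and 3.01 on them. On the 7 other arrays it lay between -2.48 and -1.66, and the threshold, the mean of the 11 arrays, was -0.05. The nearest arrays on either side of the threshold were CT18 mouse 14 and CT6 mouse 5, and no array lay between them. Each of the 5 genes had a probe well above background on all 7 other arrays, so that the markers were lower there and not absent. CT12 mouse 11, which the rule did not use, had a marker mean of 2.31.

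**Figure D1:**
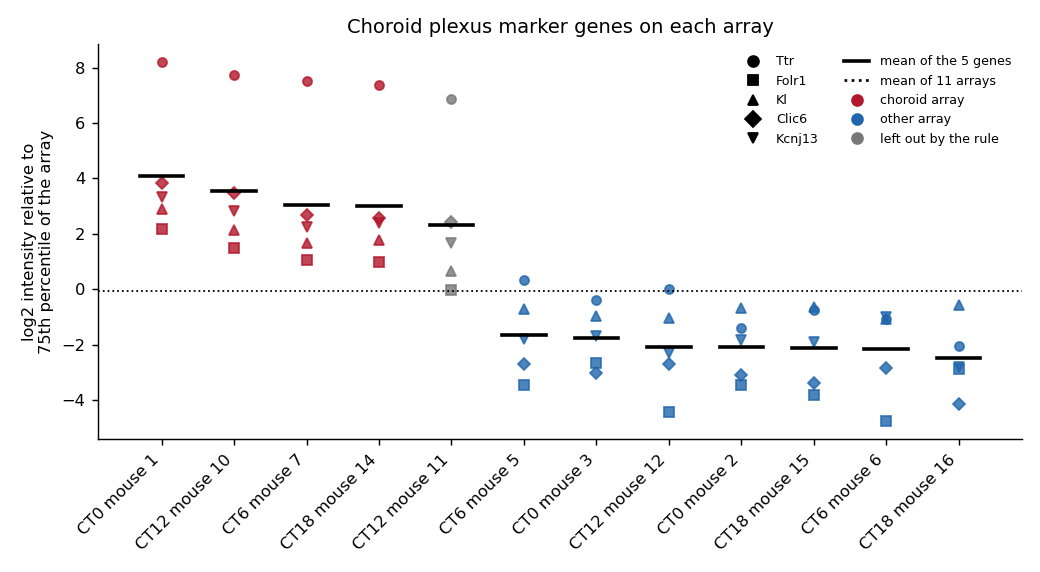
Scaled log2 intensity of the 5 marker genes (symbols, with a gene of 2 probes by their mean) and their mean (bar) on each of the 12 arrays, ordered by that mean. The 4 choroid arrays (red) lie between 3.01 and 4.10 and the 7 other arrays (blue) between -2.48 and -1.66, with CT12 mouse 11 (grey) at 2.31.

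Across 24363 genes, 171 (0.702%) were higher in the choroid arrays, by the rule that the lowest choroid array exceeded the highest other array and the means differed by at least 1. By the mirrored rule 1 gene (0.0041%) was lower. Where the size of the difference was left aside, the choroid arrays lay above all 7 others for 389 genes (1.6%) and below all of them for 356 (1.46%). The median difference over all genes was -0.05, and 23154 genes differed by less than 0.5 in either direction. With normexp background correction the count was 76, with 75 of the same genes, and it was 104 with probes well above background on all 11 arrays. Of the 171 higher genes 155 had a RefSeq symbol, 81 were higher by at least 2 and 22 by at least 4. All 171 lay well above background on all 4 choroid arrays. On the 7 others, 104 lay well above background on every array, 46 on some and 21 on none. Those 21 passed the filter on dim probes only through the choroid arrays. Part of the 46, such as Cldn2 with 1 of the 7, passed in the same way. In such tissue RNA, fewer cells of a type and less RNA per cell cannot be told apart.

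**Figure D2:**
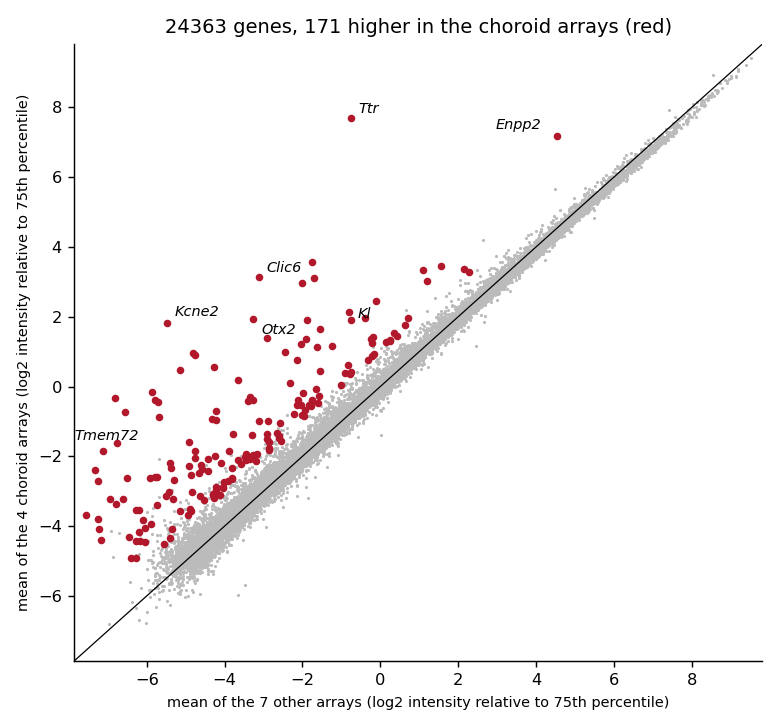
Mean of the 4 choroid arrays against the mean of the 7 other arrays for 24363 genes, both as scaled log2 intensity, with the line of equality. The 171 genes called higher (red) lie above the line over most of the range of intensity, from -7.56 to 4.53 (Enpp2) in the other arrays.

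Proteins that the plexus secretes into the cerebrospinal fluid formed the first list, and 12 of its 20 measured genes were higher, with a median difference of 1.85 against -0.05 for all genes. Ttr had 8.20, 7.50, 7.74 and 7.36 on the choroid arrays. On the 7 other arrays it ran from -2.03 to 0.35 with a median of -0.75. The groups did not overlap, and the means, 7.70 ± 0.37 (SD, n = 4) and -0.75 ± 0.83 (SD, n = 7), differed by 8.45, or 349-fold. All 4 choroid arrays lay close together for Ttr beside the distance to the others.

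Enpp2, which encodes autotaxin, the enzyme that makes lysophosphatidic acid, was well above background on all 7 other arrays. It had 7.69, 6.86, 7.33 and 6.83, against 4.38 to 4.73 (median 4.55) on the others. The difference was 2.65, or 6.26-fold, and the 7 other arrays lay within a narrow band (SD 0.13). The groups did not overlap.

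F5, coagulation factor V, differed by 4.84 (0.56 ± 0.61 against -4.28 ± 0.33), and both of its probes were higher by at least 1. Ecrg4, a secreted peptide precursor of the epithelium, differed by 4.83 (3.12 ± 0.65 against -1.71 ± 0.20), and Sostdc1, an inhibitor of BMP and WNT signals, by 3.27. The lipid enzyme Pla2g5 followed with 3.04 and the lipopolysaccharide-binding protein Lbp with 2.90. Growth factor genes differed less: Igf2, made by the epithelium and by stromal cells, differed by 1.88 (3.69-fold) and Igfbp2, which binds IGF2, by 1.82 (3.53-fold). Secreted genes that the hippocampus also expresses differed little, with -0.04 for Clu (clusterin), -0.11 for Cst3 (cystatin C) and -0.21 for Rbp4 (retinol-binding protein).

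Among transporters, channels and carbonic anhydrases 18 of 35 genes were higher, with a median difference of 1.05. As measured, the largest difference after Ttr was that of Kcne2, a subunit of potassium channels in the apical membrane. Kcne2 had 2.69, 1.44, 1.87 and 1.29. The others ran from -6.50 to -4.85 (median -5.19), and only 3 of those 7 lay well above background. Its difference was 7.30 (157-fold).

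The bicarbonate carrier Slc4a5 differed by 5.69, the water channel Aqp1 by 5.66 and the metalloreductase Steap1 by 5.77, all from levels near background on the other arrays (well above it on 1, 5 and 5 of the 7). Of the markers of the rule in this list, Clic6 (an intracellular chloride channel protein) differed by 6.25, Folr1 (the folate receptor) by 5.32 and Kcnj13 (an inward rectifier potassium channel) by 4.97. In the mm9 coordinates of the array, Kcne2 (chromosome 16, 92298236 to 92298295) and Clic6 (chromosome 16, 92541363 to 92541422) have probes 243 kb apart. Slc16a8, a lactate transporter, differed by 3.39, the organic anion transporter Slco1a5 by 3.24 and the cation channel Trpv4 by 3.19. Of the 7 other arrays only 3 had Slco1a5 well above background.

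Slc13a4, a sulfate transporter that meningeal fibroblasts also express, was the nearest to overlap in this list. Its lowest choroid array had 2.67 and its highest other array, CT6 mouse 6, had 2.65, although the means differed by 2.24. The pump and cotransporter genes of the epithelium that neurons and glia share showed small differences: 0.44 for Slc12a2 (NKCC1), -0.20 for Atp1b1 (the beta subunit of the sodium pump) and 0.06 for Car2 (carbonic anhydrase 2). Slc12a2 was the largest of these, with 2.74 to 3.18 on the choroid arrays and 2.37 to 2.72 on the others.

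Receptors gave 4 of 14 measured genes higher, with a median difference of 0.53. Prlr, the prolactin receptor, had 2.24, 0.82, 1.53 and 0.87, against -2.19 to -1.65 (median -1.90) on the others. Its difference was 3.27 (9.64-fold). Kl, which encodes klotho, the coreceptor of FGF23 and a marker of the rule, differed by 2.94. Ace, the angiotensin converting enzyme, differed by 1.73 and Crhr2, a receptor of urocortins, by 1.19. Htr2c, the serotonin receptor that the epithelium carries at high density, had 2.20 to 2.76 on the choroid arrays and 1.91 to 2.15 on the others. The means of Htr2c differed by 0.52, under the minimum of 1.

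Transcription factors gave 3 of 12 measured genes higher, and the median difference of the list was 0.18. Otx2, a homeodomain factor needed to form and maintain the choroid plexus, led them. It had 2.58, 1.41, 2.55 and 1.20, and between -3.90 and -2.67 (median -3.30) on the others, a difference of 5.22 (37.3-fold). The array places its probe at 49277855 to 49277914 of chromosome 14 (mm9). Lmx1a, a factor of the roof plate from which the plexus arises, was not well above background on any of the 7 others. Its level was at least 8.62-fold higher in the choroid arrays, where this bound sets each dim array at the lowest signal of a probe well above background on it, or at its own value if higher. Msx1 differed by 1.43. Foxj1, the master factor of motile cilia, differed by 1.0 after rounding, without a gap between the groups (lowest choroid array -0.50, highest other array -0.44), and Pax6 by -0.09.

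OTX2 binds a short motif, TAATCC. It was searched on both strands, as TAATCC or its reverse complement GGATTA, which share no overlap, in the 250 bases before the start of each gene in RefSeq (GRCm38.p6). The motif stood in 15 of the 118 higher genes with a promoter entry (12.7%) and in 1949 of 27025 genes in all (7.21%). A gene was counted if any of its starts had a match, so a gene with more starts had more chances. The number of starts was not matched between the sets, so these shares are not like for like. Among the 30 genes with the largest difference and a RefSeq symbol, 3 of the 25 with an entry held it (12.0%). The promoter of Otx2 itself and those of Abca4 and Steap2 are shown, 5′ to 3′ on the strand of the gene, because Otx2 is the factor and the others are members with the motif 1 time and 2 times. Capitals mark the motif on either strand. RefSeq gives 4 starts for Otx2 and 3 for Steap2, and the window shown is in each case the only one of them with a match. The window of Otx2 is chr14:48665110-48665359 (minus strand), that of Abca4 chr3:122044210-122044459 (plus strand) and that of Steap2 chr5:5694569-5694818 (minus strand). The match begins 211 bases before the start of Otx2, 58 before that of Abca4, and 138 and 115 before that of Steap2. A match in a window is a description of its letters.
Otx2: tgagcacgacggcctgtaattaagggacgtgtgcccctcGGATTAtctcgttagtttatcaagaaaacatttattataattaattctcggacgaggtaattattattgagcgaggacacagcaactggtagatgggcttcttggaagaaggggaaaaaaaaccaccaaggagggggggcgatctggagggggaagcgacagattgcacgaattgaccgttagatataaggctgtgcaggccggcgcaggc
Abca4: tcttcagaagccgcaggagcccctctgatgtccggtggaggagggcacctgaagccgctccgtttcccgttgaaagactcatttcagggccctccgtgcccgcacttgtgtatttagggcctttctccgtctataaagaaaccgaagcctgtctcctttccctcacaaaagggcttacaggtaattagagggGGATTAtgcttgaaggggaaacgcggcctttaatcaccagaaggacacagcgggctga
Steap2: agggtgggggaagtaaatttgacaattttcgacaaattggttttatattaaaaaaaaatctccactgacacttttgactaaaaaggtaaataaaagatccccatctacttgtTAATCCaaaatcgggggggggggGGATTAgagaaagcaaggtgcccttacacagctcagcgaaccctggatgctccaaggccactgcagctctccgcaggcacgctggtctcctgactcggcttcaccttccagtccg

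The list of junction and keratin genes, which also takes in other epithelial genes (Wfdc2, Wdr86, Tmem72, Col8a1, Calml4 and Rdh5 among them), had 19 of 23 measured genes higher and a median difference of 2.40. All 23 had a difference above 0, from 0.44 to 5.63. Of the 23, 15 were well above background on all 7 other arrays and 2 on none. Those 2 passed the filter only through the choroid arrays, so that the filter fixes part of this count. In the secreted list 19 of 20 and in the transporter list 29 of 35 were well above background on all 7. Cldn2, the claudin that forms cation and water pores between epithelial cells, had 0.42, -0.96, -0.25 and -0.93. The others ran from -6.86 to -2.47 (median -6.01), the highest being CT0 mouse 3, and 1 of the 7 was well above background. The claudins Cldn3 and Cldn1 differed by 3.21 and 2.04 as measured, each well above background on only 1 of the 7 others.

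Krt18 and Krt8 encode the paired keratins of simple epithelia. Krt18 had 2.68, 1.67, 2.14 and 1.13, against -2.80 to -1.42 (median -1.89). Its difference was 3.80 and that of Krt8 was 3.24. Wfdc2, a secreted protease inhibitor of epithelia, differed by 5.63 as measured (well above background on 3 of the 7 others), and Wdr86 by 4.31. Tmem72 was not well above background on any of the 7 other arrays and was at least 23.7-fold higher in the choroid arrays. Col8a1, a collagen of basement membranes, and Calml4 of the epithelial brush border differed by 3.30 and 3.45. Of the 7 other arrays only 2 had Col8a1 well above background.

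Of the 171 higher genes 56 were in a choroid list and 61 in any list, so most members lay outside the lists. Prr32 had a measured difference of 6.49, but only 1 of the 7 other arrays had it well above background, so that its size is uncertain. Tex22 differed by 5.38 and the beta-defensin gene Defb11 by 4.82, again with 1 of 7. The serine protease Tmprss11a (at least 16.5-fold higher), the keratin Krt23 (at least 13.9-fold), Bhmt, which remethylates homocysteine (at least 11.7-fold), and Wdr72 (at least 6.57-fold) were not well above background on any other array. The higher genes also held Abca4 (difference 3.34), a transporter of retinoids, Rrh (at least 7.65-fold higher), a retinal opsin known as peropsin, and Sult1c2 (at least 8.61-fold higher), a sulfotransferase. Rdh5, a retinol dehydrogenase, differed by 2.35. Abca4, Rrh and Rdh5 have, like Ttr, a role in the handling of retinoids or thyroid hormone. In the list for that process 3 of 18 genes were higher, Ttr and Rdh5 among them, and its median difference was 0.17.

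Members near the minimum difference of 1 had small but separate groups. Just inside stood Arhgef5 (1.0) and Ltc4s (1.01), and just outside, with no overlap but slightly under 1, stood Rsph1, Mgp and Tekt1, each 1.0 after rounding. The only lower gene was Ccdc190, with -3.22 to -3.10 on the choroid arrays and -3.09 to -0.70 on the others, a difference of -1.01. Without CT6 mouse 7 the count of lower genes was 15, and it was 0 without CT0 mouse 2, CT12 mouse 10, CT12 mouse 12 or CT18 mouse 16, and 3 without CT6 mouse 5.

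The motile cilium list showed smaller differences. It does not hold every cilium gene, and some outside it were also higher. Drc7 differed by 3.03 as measured (well above background on 3 of the 7 others) and Cfap53 by 1.27. The 37 measured genes of the list had a median difference of 0.47, with 36 above 0 and 4 higher: Dnah11 (1.28), Dnah6 (1.27), Gmnc (1.21) and Cfap126 (1.18). The median of the list was 0.90, 0.33, 0.68 and 0.08 on the choroid arrays, against -0.22 to 0.26 on the 7 others. The ependymal list (11 genes), for the ciliated lining of the ventricle, had 0 higher genes, against 0.702% of all genes. Its median was 1.12, 0.11, 0.82 and -0.04 on those 4 arrays and -0.41 to 0.37 on the others. CT6 mouse 7 and CT18 mouse 14 thus lay within the range of the other arrays for the ependymal list, while the junction and keratin list had 1.99 and 2.03 on them against -0.17 to 0.29 on the others.

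Among genes of the stroma, all 27 genes of the fibroblast list had a difference above 0, with a median of 0.81, but only Igf2 was higher by the rule. Col1a2, the collagen I chain, had 2.13 to 3.18 on the choroid arrays and 0.69 to 2.31 on the others, and the groups overlapped. The median of the list was 1.33, 0.47, 0.80 and 0.62 on the choroid arrays. The other arrays spread from -0.53 in CT18 mouse 16 to 0.72 in CT6 mouse 6, which had no raised choroid markers and still exceeded CT6 mouse 7 and CT18 mouse 14.

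Border macrophages, which sit in the plexus and the meninges, gave a like pattern, with a median difference of 0.64, 13 of 13 genes above 0 and 0 higher. The MHC class II gene H2-Ab1 had -1.07 to 0.22 on the choroid arrays and -3.23 to -0.51 on the others. In CT6 mouse 6 the median of the macrophage list was 0.66. Fenestrated endothelium gave 1 of 6 genes higher, Esm1 (1.55), while Plvap, the diaphragm protein of fenestrae, differed by 0.18. Brain endothelium (15 genes, median 0.09), mural cells (12 genes, 0.16) and microglia (12 genes, -0.10) had 0 higher genes. With a share of 0.702% over all genes, a count of 0 in lists this small says little.

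Other regions next to the hippocampus were checked in the same way. The thalamus list (11 genes) had a median of 1.87 in CT12 mouse 10, but at most 0.13 on the other choroid arrays and between -0.30 and 0.23 on the 7 others. Its gene Tnnt1 had 3.75 in CT12 mouse 10 and at most 0.03 on the remaining 10 arrays of the rule. Prkcd, a kinase gene of thalamic relay neurons, had 3.24 there and at most 0.71 elsewhere among them. The habenula (5 genes, median difference -0.16), striatum (10 genes, -0.11) and cerebellum (8 genes, 0.06) lists had 0 higher genes. So had the thalamus list, and the share over all genes was 0.702%. The rule asks for all 4 choroid arrays, so this count cannot show a region present on a single array. The striatum list had a median of 0.77 in CT6 mouse 6.

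Hippocampal cell types were slightly lower or even. Forebrain excitatory neuron genes had a median difference of -0.31 with 0 of 8 above 0, and the CA1 pyramidal list -0.21 with 0 of 8 above 0. In CT12 mouse 10 the medians were -0.71 and -0.61, and on the other choroid arrays between -0.21 and 0.06. Dentate granule cells (-0.15), interneurons (-0.21), astrocytes (0.01) and oligodendrocytes (0.05) differed little. The part of thalamic tissue in the values of CT12 mouse 10 was not tested.

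**Figure D3:**
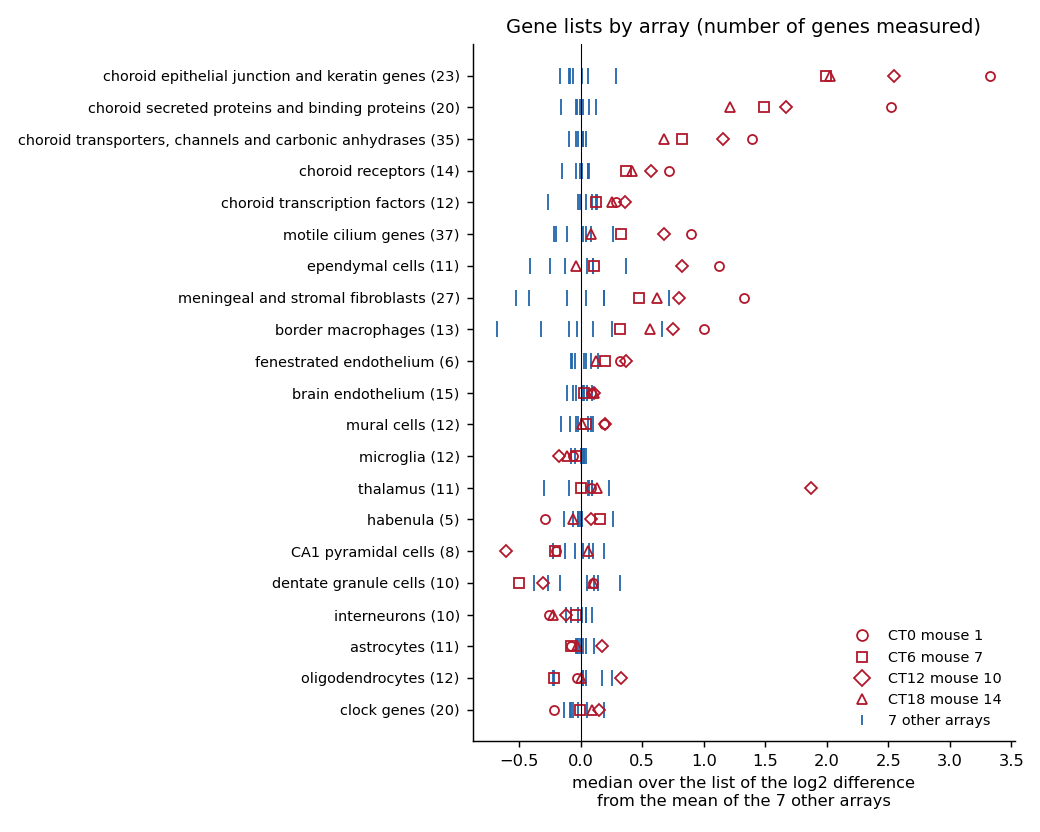
Median over each gene list of the log2 difference from the mean of the 7 other arrays, for the 4 choroid arrays (red symbols) and the 7 others (blue bars), with the number of genes measured. The junction, secreted, transporter and receptor lists lie to the right of all 7 others on each choroid array, the thalamus list only on CT12 mouse 10 (1.87), and the clock list spans 0.

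The amount of choroid signal differed among the 4 arrays. CT0 mouse 1 was the highest array for 150 of the 171 genes, CT12 mouse 10 for 19, CT18 mouse 14 for 2 and CT6 mouse 7 for 0. The lowest choroid array was CT18 mouse 14 for 122 genes and CT6 mouse 7 for 45. All 4 arrays stood in the order of mice 1, 10, 7 and 14 in 98 genes. Without CT0 mouse 1, whose background was raised, 151 genes were higher, 150 of them among the 171.

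To compare the arrays on a linear scale, the mean intensity of the 7 others was subtracted and the rest, the added intensity, was divided by that of CT0 mouse 1. Over the 81 genes higher by at least 2, the median was 66.3% in CT12 mouse 10 (quartiles 58.4% and 75.4%), 44.1% in CT6 mouse 7 (37.2% and 49.5%) and 37.5% in CT18 mouse 14 (30.6% and 43.2%). The shares of most genes thus lay close to the median of their array. Among the higher members of the lists the median share in CT12 mouse 10 was 64.4% for secreted proteins, 73.3% for transporters and 66.3% for the junction and keratin list. In CT6 mouse 7 the same members had 41.9%, 45.9% and 41.8%.

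Ttr gave shares above the medians of the 81 genes, with 61.6%, 72.7% and 55.9% in mice 7, 10 and 14. Single genes departed from these shares. Sfrp5, a secreted WNT inhibitor, reached 306.4% in CT12 mouse 10, where it had 1.20 against -0.29 in CT0 mouse 1. A transcript without a gene symbol on chromosome 10 had 209.4% there, and it was not well above background on any of the 7 others. Krt23 (112.7%), Sult1c2 (130.6%), Mc3r (125.8%) and Wfikkn2 (138.1%) also exceeded CT0 mouse 1 there, as did Cldn1 (100.2%) by a small margin, and Cdh3 was the lowest at 16.7%. In CT6 mouse 7 the shares ran from 24.1% to 75.8% and in CT18 mouse 14 from 14.8% to 55.9%, so that none of the 81 genes reached the level of CT0 mouse 1.

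**Figure D4:**
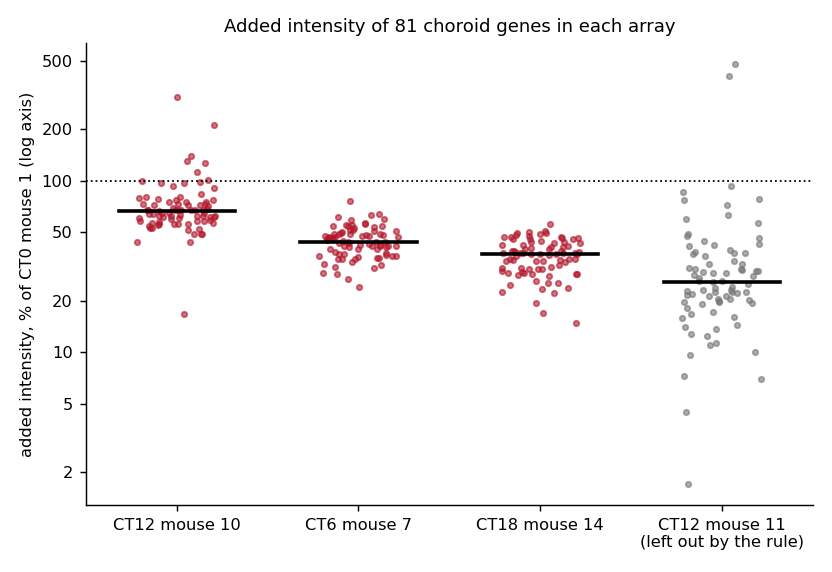
Added intensity (linear intensity minus the mean of the 7 other arrays) of the 81 genes higher by at least 2, as a percentage of that in CT0 mouse 1 (dotted line at 100), on a log axis, with the median as a bar. Medians are 66.3%, 44.1%, 37.5% and, in CT12 mouse 11, 25.8%, with a wider scatter in CT12 mouse 11.

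CT12 mouse 11 had no part in choosing the members and gives their values in a further sample, with n = 1 and no test. Of the 171 genes 151 lay above all 7 other arrays in it, against 28.2% of all genes, and 129 also lay at least 1 above their mean, against 6.46% of all genes. The 171 were chosen to lie low on those same 7 arrays, so their counts and the shares of all genes are not like for like. The remaining 20 genes did not lie above all 7, and 9.56% of all genes lay at least 1 below the mean of the 7 and below each of them. Ttr had 6.85 in it, Kcne2 0.93, Otx2 2.37 and Prlr -0.25. The median added intensity over the 81 genes was 25.8% of CT0 mouse 1 (quartiles 19.5% and 37.7%). Otx2 (86.3%) and Lmx1a (77.2%) lay far above that share, and Sfrp5 (479.2%) and Serpinb1b (405.0%) exceeded CT0 mouse 1. This array differed from the others in its brain region markers, so its values for genes that other regions express cannot be told apart from those of choroid tissue.

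Since each circadian time held 1 choroid array, each could be set against the other arrays of the same time (2 at CT0, CT6 and CT18, and 1 at CT12). The median difference of the 171 genes was 2.35 at CT0, 1.43 at CT6, 2.19 at CT12 and 1.60 at CT18, against -0.07 to -0.02 for all genes. With no overlap at any time and a mean of the 4 differences of at least 1, 221 genes were higher, 168 of them among the 171. The choice of the 171 leaves no overlap at any time for them, so that the 168 in large part restate that choice. For Ttr the differences were 9.08, 7.87, 7.70 and 8.75, for Kcne2 8.89, 6.33, 6.84 and 6.88, and for Otx2 5.38, 5.11, 5.70 and 4.62, in the order CT0, CT6, CT12 and CT18. With 1 choroid array at each time, circadian time and the amount of choroid tissue in that array cannot be told apart for these sizes.

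Within slides, the 171 genes had a median difference of 1.90 on slide 1 and 1.63 on slide 3. Slide 2 held no choroid array of the rule. The difference was at least 1 for 159 of the 171 genes on slide 1 and for 137 on slide 3. In all, 211 genes had no overlap within either slide and a mean of both differences of at least 1, 156 of them among the 171. The choice of the 171 leaves no overlap within a slide for them and fixes these sizes in large part. Their counts are therefore no result about slide. On slide 3 the difference rested on CT6 mouse 7 alone.

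Circadian time comes from the labels, so the choroid genes could be tested for it, by limma's moderated F test on the 4 circadian means over the 11 arrays with Benjamini-Hochberg adjustment. The test called 58 of 24363 genes (0.238%) at an adjusted p under 0.05, and 0 of the 171 choroid genes. Leaving out any single one of mice 1, 2, 3, 5, 6, 7, 14, 15 and 16 brought the count over all genes down to between 3 and 34. At an unadjusted p under 0.05 there were 2959 genes in all (12.1%) and 0 of the 171. The choice of the 171 fixes this count in large part, since 1 array at each circadian time lies above the others in all of them, which sets a large residual SD. Their median residual SD within circadian time was 1.229, against 0.168 for all genes. The count is therefore no result about circadian change of these genes. For Ttr it was 5.06 and the adjusted p was 0.984.

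With a term for choroid arrays in the model, the median residual SD of the choroid genes fell to 0.415 and that of all genes to 0.150. Of all genes 14.3% (3492) then had an unadjusted p under 0.05, as had 35 of the 171, and 0 of the 171 were called by limma's F test. Since the 171 were chosen on these arrays and 21 of them were not well above background on any of the 7 others, their share is not set against that of all genes. The smallest adjusted p was 0.0992, for Abca4. Abca4 had -0.73 at CT0, -1.55 at CT6, -1.59 at CT12 and -2.44 at CT18 on the choroid arrays, and -4.57 and -4.04, -4.29 and -4.83, -5.35, and -5.42 and -5.91 on the others at the same times. In the mean, both sets of arrays were highest at CT0 and lowest at CT18. On the choroid arrays, CT0 mouse 1 was also the highest for 150 of the 171 genes and CT18 mouse 14 the lowest for 122. Time and the amount of choroid tissue cannot be told apart there. On the others, Abca4 was well above background on only 4 of the 7 arrays. The gene passed in only 1 of 25 settings tried (adjusted p = 0.0458 by limma with the marker mean as a numeric term). Over those settings its adjusted p reached 0.996. On the 7 other arrays alone 0 genes were called in all by limma, and 2270 (9.32%) had an unadjusted p under 0.05.

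With the choroid term the circadian test called 66 genes (0.271%), of which 48 were called without it, while 10 were called only without it and 18 only with it. The genes of smallest p were Ugt2b5, P4ha1 and Nxnl2 without the term, and Ugt2b5, Plin4 and P4ha1 with it. Ugt2b5 was well above background on only 2 of the 11 arrays, both at CT12 (-4.80 and -4.17), and passed the filter through them, so that its p rests on dim values at the other times. Nxnl2 was well above background on 3 of the 4 choroid arrays and 4 of the 7 others. It was lowest at CT18 (-6.49, -6.23 and -6.34), so that its p rests in part on dim values. Plin4, a lipid droplet protein gene, had a residual SD of 0.344 without the term and 0.175 with it, and its adjusted p went from 0.0247 to 0.00571. None of these genes was among the 171.

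Against 0.702% of all genes higher and 0.0041% lower, clock genes gave 0 of 20 measured either way. Their differences between choroid and other arrays ran from -0.26 (Npas2) to 0.29 (Cry1) with a median of 0.01. The repressor gene Nr1d1 (REV-ERB alpha) had 0.16, 1.09, 0.56 and -0.17 on the choroid arrays at CT0, CT6, CT12 and CT18. The others had 0.16 and 0.26 at CT0, 0.93 and 1.10 at CT6, 0.72 at CT12, and -0.10 and 0.05 at CT18. Its adjusted p by limma's F test was 0.0109 without the term and 0.0222 with it. Ciart, another repressor, had -3.50, -2.60, -1.92 and -3.36 on the choroid arrays and -4.01 to -1.82 on the others. Its adjusted p by limma's F test was 0.0135 without the term and 0.0251 with it. Per2 (0.0339 and 0.0406) and Nr1d2 (0.0321 and 0.0366) were also called by limma both ways. Over 26 settings Nr1d1 and Ciart were called in 19 each, Per2 in 13 and Nr1d2 in 7, with adjusted p up to 0.482, 0.518, 0.482 and 0.520. Dbp (0.0627 and 0.0792) and Arntl (0.123 and 0.0707), the gene of BMAL1, were not.

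**Figure D5:**
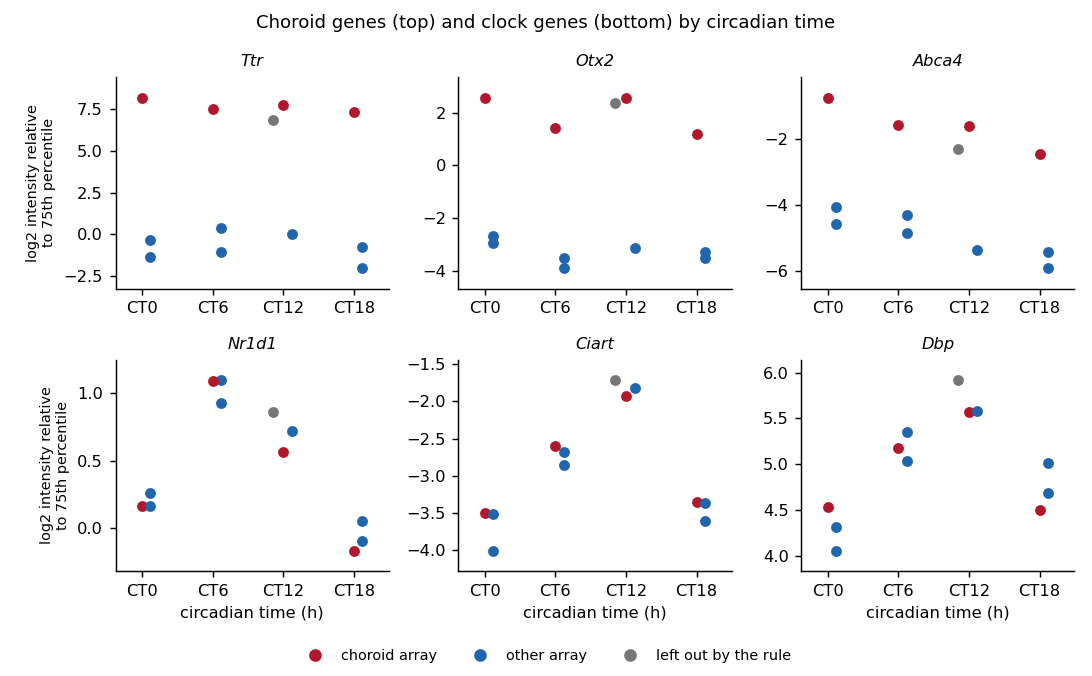
Scaled log2 intensity of 3 choroid genes (top) and 3 clock genes (bottom) on each array by circadian time, with a scale of its own for each gene. Choroid arrays (red) lie far above the others (blue) at all 4 times for Ttr, Otx2 and Abca4, and near them for Nr1d1, Ciart and Dbp; CT12 mouse 11 is grey.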

How the data were processed

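Total RNA of 12 hippocampi was hybridised to 1-colour Agilent arrays. Per the file headers, the deposited spot intensities were made with Agilent Feature Extraction 10.7.3.1, which subtracts the background and detrends within the array but does not scale between arrays. The quality flags of each spot were deposited in the same files, and no step of pooling is recorded. A table of log2 values deposited with the series was used as an alternative. Its columns have medians of 5.358 to 5.374 and correlate best with their own array, and its normalization is not given in the sources used here. Probe coordinates are on mm9.

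The log2 processed intensity minus the array's 75th percentile was used. Outlier spots were dropped, spots of a probe averaged, and the brightest probe stood for a gene. A probe was kept if it was well above background on all arrays of a circadian time, of the 4 choroid arrays or of the 7 others, which left 34391 probes and 24363 genes, 16237 of them with a RefSeq symbol. Of 55681 probes 26679 were named by accession, 2543 by symbol and 474 by synonym in RefSeq (GRCm38.p6), and 25985 kept the name on the array. Promoter sequences are from RefSeq (GRCm38.p6). The 4 choroid arrays were compared with the 7 others without a test. Circadian time was tested with limma 3.58.1 (R 4.3.3) and Benjamini-Hochberg adjustment over all genes, with fits tested on simulated data. Tables and plots were made with Python 3.11.15, numpy 2.4.6, pandas 2.3.3 and matplotlib 3.10.9. The number of arrays limits the precision, and p-values measure the spread between mice. On every slide CT0, CT6, CT12 and CT18 had position numbers 1, 2, 3 and 4 in the file headers. Circadian time, position number and hours of darkness therefore cannot be told apart in the F test.

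The choroid arrays, the 28 gene lists and the tests were chosen with earlier results of these data known. Named genes were taken from the 5 markers, the 30 genes of largest difference with a RefSeq symbol, up to 8 higher members per list, the lower genes, the clock genes measured and the 10 genes of smallest p in the circadian fits. Other genes, such as Sfrp5, Serpinb1b, Mc3r, Wfikkn2, Ins2, Folr2, Drc7, Cfap53, Col1a2, H2-Ab1, Plvap, Tnnt1, Prkcd and list members that were not higher, were chosen after their values were seen. Alternatives were the normalization, the background correction, the deposited table, the filter, the probe of a gene, each array left out, CT12 mouse 11 kept, the threshold, slide and variance model. Some genes measured are not reported here by name.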

Additional observations from a re-analysis of the deposited data

Results flagged for a closer look

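Of 118 groups of 4 or 7 arrays examined, 9 held an array far from the rest by Dixon's criterion, which chance meets in about 1 group in 20. Among the choroid arrays the thalamus list had a median of 1.87 in CT12 mouse 10, and the next highest array had 0.13. Among the 7 other arrays CT0 mouse 3, the array with the most spots well above background, was the highest for 4 choroid genes. It had -2.47 for Cldn2 (next -5.90), -3.60 for F5 (next -4.22), -6.34 for Krt23 (next -7.09) and -5.98 for Wdr72 (next -7.16). Krt23 and Wdr72 were not well above background on any of the 7 other arrays. Their values there lay under -5.66, the lowest signal of a probe well above background on CT0 mouse 3. CT6 mouse 6 had the lowest Krt18, at -2.80 (next -2.0), and the highest medians of the striatum list, 0.77 (next -0.05), and of the habenula list, 0.26 (next 0.01). CT12 mouse 12 had the lowest median of the choroid transcription factors, -0.27 (next -0.02). The marker mean of CT12 mouse 11, an array outside the rule, was 2.31, against at most -1.66 on the 7 other arrays. The part of RNA quality or dissection in these values was not tested.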

How the results depend on the processing

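The rule took the same number of arrays, 4, under quantile normalization, median centring, normexp correction and the deposited table, and without each marker in turn. With CT12 mouse 11 included, an alternative chosen after seeing the data, it took 5. The count of higher genes (171) was 76 with normexp correction, 104 with probes well above background on all 11 arrays, 81 with a difference of at least 2 and 283 with no gap required. The count of lower genes (1) was 5 with no filter, 2 with CT12 mouse 11 and 11 with no gap required. The count of genes called by the circadian F test (58) was 140 with normexp correction, 6 with no filter, 0 on the 7 other arrays alone, 14 with slide as a block and the choroid term, and 219 with a variance trend and robust estimation in limma. The cause was not tested, except that the 7 arrays hold fewer samples. With 1 array left out, higher genes ran from 151 (without CT0 mouse 1) to 229 (without CT18 mouse 14), lower genes from 0 to 15, the median of the choroid lists from 0.99 to 1.21 and circadian calls from 3 (without CT6 mouse 7) to 74 (without CT12 mouse 12). The other alternatives gave 154 to 221 higher genes and 39 to 86 circadian calls. Of 908 differences recomputed for 49 named genes, 0 reversed and 42 moved by more than the spread. No pairing by mouse was possible because mouse numbers are not shared between circadian times. Each slide held 1 array of each time, and with slide as a block alone the F test called 63. Genes not well above background on the 7 other arrays have only a lower bound.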

Other observations

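Of the 171 higher genes 32 had another of them within 500 kb by the mm9 starts of their probes, in 19 pairs. The same count was not made for all genes, so it is no result about clustering. The probes of Slc16a9 and AK077025, a transcript without a gene symbol, lay 0.083 kb apart and may measure the same locus, which was not tested. Besides the keratin pair Krt18 and Krt8 (35.2 kb apart), Folr1 lay 18.1 kb from Folr2, the folate receptor of macrophages, which differed by 2.37. Folr2 had -1.56, -2.76, -2.23 and -2.45 in mice 1, 7, 10 and 14 and -5.99 to -3.58 on the 7 others. The probe of Igf2 lay 24.9 kb from that of Ins2, the insulin 2 gene, which differed by 1.54, with -0.65, -1.44, -1.62 and -1.75 against -3.29 to -2.55. Steap2 lay 64.5 kb from Steap1 and differed by 1.55.

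On chromosome 14, 2 transcripts without a gene symbol lay near Otx2. The probe at 49284952 to 49285011 (mm9), 7.1 kb from that of Otx2, differed by 1.49. The probe at 49412903 to 49412962, 135 kb away, differed by 5.16 as measured, but was well above background on only 1 of the 7 others, and had -1.11, -1.91, -1.14 and -2.28 in mice 1, 7, 10 and 14. On the 7 others it ran from -7.59 to -3.57, with the highest value in CT0 mouse 3. Whether these probes and Otx2 share transcripts was not tested.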
